A study of Mus musculus with 12 samples.

Results

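The genes described here are the clustered histone genes of the mouse, the rows of the gene count tables whose symbol begins with Hist1h, Hist2h, Hist3h or Hist4h. Of 70 such symbols among 52535 gene entries, 42 had 10 or more counts summed over the 6 libraries and are the members described below. Another 15 had 1 to 9 counts and 13 had 0. The members comprise 5 H1, 7 H2A, 13 H2B, 9 H3 and 8 H4 genes. By cluster, 37 belong to Hist1 on chromosome 13, 3 to Hist2 on chromosome 3 and 2 to Hist3 on chromosome 11, while Hist4h4, the single Hist4 gene, stayed below the limit with 6 counts.

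The libraries came from E14, a mouse embryonic stem cell line, grown in serum medium with LIF and the kinase inhibitors known as 2i. Wild type cells (WT), clone 1 of a Bcat1 knockout and clone 2 of a Bcat1 knockout were each sequenced in 2 libraries, and all 6 shared the same medium. Each knockout group is 1 clone, so a difference between a clone and WT cannot be told apart from a difference between clones of any origin. Nothing in the labels states whether replicate libraries were grown as separate cultures. The p-values of the clone contrasts therefore refer to library-to-library spread alone, possibly technical. In the test for genotype, both clones together against WT, difference between the clones also enters the spread. The 4 knockout libraries stem from 2 clones and are not 4 independent replicates, although the genotype test treats them as such. In a bulk sample fewer cells with an RNA and less RNA per cell cannot be told apart.

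Clustered histone genes encode the linker histone H1 and the core histones H2A, H2B, H3 and H4 that package newly made DNA. Most are transcribed in S phase, lack introns and give messenger RNAs that end in a conserved stem-loop in place of a poly(A) tail. The stem-loop is bound by SLBP, and U7 small nuclear RNA guides the cut behind it. Replacement variants such as H2A.Z and H3.3 are encoded outside these clusters, are made throughout the cell cycle and carry poly(A) tails. Some clustered genes also give a longer polyadenylated RNA by reading past the stem-loop.

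The stem-loop was searched in GENCODE M21 transcripts (GRCm38), on the sense strand, as GGNNCT, then the loop TTTN, then AGNNCC. It is shown because it is the family's signature and because the annotated distance behind it differs between the members the results turn on. The capitals mark the loop.
Hist1h1c: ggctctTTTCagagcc
Hist1h2ap: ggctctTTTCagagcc
Hist1h3c: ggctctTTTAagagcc
Hist1h4i: ggccctTTTTagggcc
Hist1h4j: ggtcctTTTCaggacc
The letters were found in 29 of the 42 members (69.0%), against 0.156% of 21855 other protein-coding genes, and in 12 members they lay within the last 100 bases of an annotated transcript. The sequence of Hist1h1c was the most frequent and occurred in 18 members of the H1, H2A, H2B and H3 classes. The form with TTTA in the loop, as in Hist1h3c, occurred in 5 members of H2B and H3, and all 3 remaining forms occurred in H4 genes, in 3, 2 and 1 members. Behind the stem-loop the annotated transcript ran for 840 bases in Hist1h1c and 330 in Hist1h4i, but for 74 in Hist1h3c and 3 in Hist1h2ap. A poly(A) signal, AATAAA or ATTAAA on the sense strand within the last 50 bases, was found in 13 members (31.0%) against 80.9% of the other protein-coding genes. Hist1h1c and Hist1h4i had one, and Hist1h3c and Hist1h2ap did not. Several members are annotated without a 3′ untranslated part, so letters not found say only that they are not in the annotated transcript.

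Promoter windows of 35 members matched RefSeq entries on GRCm38.p6, giving 36 windows from 250 bases before to 50 after the start. The following letter patterns were searched on both strands: CCAAT, the box bound by NF-Y, TATAAA, and the octamer ATTTGCAT, bound by POU factors such as Oct-1 and known from H2B promoters. CCAAT was in 31 windows (86.1%) against 37.4% of all 32851 promoters, although only 2 of the 7 H4 windows held it. TATAAA was in 22 (61.1%) against 13.6%. The octamer was in 7 (19.4%) against 1.74%, 3 of them H2A and 4 H2B windows. H2A and H2B genes often start back to back, so some of these windows overlap and share their letters. The window between Hist1h2ac and Hist1h2bc is shown because Hist1h2bc was the most abundant member and its neighbour nearly absent, and the windows of Hist1h1c and Hist1h3c because both passed a test below. Capitals mark the matches.
Hist1h2ac, minus strand, chr13:23683910-23684209: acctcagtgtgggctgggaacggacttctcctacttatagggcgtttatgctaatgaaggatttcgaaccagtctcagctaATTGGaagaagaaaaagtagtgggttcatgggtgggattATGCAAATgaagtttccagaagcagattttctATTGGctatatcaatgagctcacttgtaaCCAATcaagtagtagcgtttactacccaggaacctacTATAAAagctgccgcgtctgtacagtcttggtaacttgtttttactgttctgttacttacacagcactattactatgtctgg
Hist1h1c, plus strand, chr13:23738557-23738856: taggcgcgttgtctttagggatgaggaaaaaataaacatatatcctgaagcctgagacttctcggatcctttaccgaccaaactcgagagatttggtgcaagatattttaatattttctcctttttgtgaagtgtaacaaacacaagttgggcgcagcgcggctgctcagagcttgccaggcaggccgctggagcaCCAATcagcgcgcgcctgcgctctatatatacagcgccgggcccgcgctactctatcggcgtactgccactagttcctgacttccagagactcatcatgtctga
Hist1h3c, minus strand, chr13:23745472-23745771: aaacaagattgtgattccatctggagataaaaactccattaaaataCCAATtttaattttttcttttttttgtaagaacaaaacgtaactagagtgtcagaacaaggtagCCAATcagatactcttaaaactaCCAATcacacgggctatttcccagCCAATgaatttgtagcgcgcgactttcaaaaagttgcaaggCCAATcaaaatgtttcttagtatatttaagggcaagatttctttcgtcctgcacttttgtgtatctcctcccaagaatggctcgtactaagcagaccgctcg

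The members were scarce in every library. Library totals ran from 11976149 to 13923262 gene counts, and the members together held 390 and 352 counts in WT, 476 and 631 for clone 1 and 346 and 397 for clone 2. That was between 0.00253% and 0.005% of gene counts. Per kb of exon, the median member stood at 0.405 CPM (gene counts scaled to 1000000 per library with TMM factors, mean of 6 libraries), and the members ranged from 0.0631 for Hist1h1d to 6.09 for Hist1h2bc. Only Hist1h2bc and Hist1h2ap lay above the median of the tested genes, 5.09 CPM per kb over 14575 genes with a length.

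**Figure D1:**
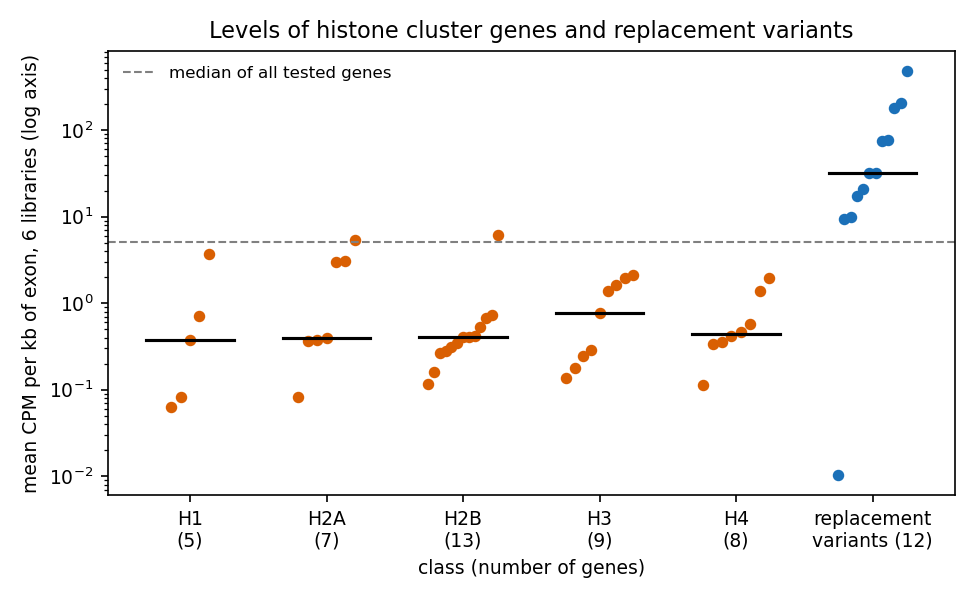
Mean CPM per kb of exon over 6 libraries on a log axis, 1 point per gene, for the 42 members by class and for the 12 replacement variants; black bars are medians and the dashed line is the median of the tested genes. Hist1h2bc at 6.09 and Hist1h2ap at 5.40 are the only members above the line, whereas the replacement variants have a median of 31.8.

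Replacement variants were far more abundant. H2afz, which encodes H2A.Z, stood at 982 and 943 CPM in WT, and H3f3b, one of the genes for H3.3, at 521 and 484. Summed over the list of 12 variants, their CPM exceeded that of all 42 members by 55 to 96.5 times in single libraries. All 11 variants searched had a poly(A) signal in the last 50 bases of a transcript. H2afx, the gene of H2A.X, was the only one of these with the stem-loop letters, and it stood at 296 and 301 CPM in WT.

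The labels describe total RNA depleted of ribosomal RNA, a preparation that by its protocol does not select for poly(A) tails. Other short RNAs that lack a tail were also scarce. Of the 8 listed that the count tables hold, 5 were at 0 in all libraries, among them Rmrp, the RNA of RNase MRP, and Rnu7, the U7 RNA of histone processing. Rn7sk, an abundant nuclear RNA in most cells, had 0 counts in WT and 4 over the libraries labelled knockout. The summed level of the list lay between 0.676 and 1.99 CPM. How far library construction, alignment or counting sets these levels was not tested. Stem cell markers were present, with Pou5f1 between 339 and 554 CPM and Nanog between 621 and 753.

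Part of the sequence of many members cannot be told from that of other copies or of genes annotated over the same bases. As a measure, all 100-base stretches of a member's transcripts were searched in the transcripts of all other genes, on both strands, and the share found nowhere else was taken. Stretches shared with an overlapping gene thus also count as not unique. In Hist3h2a, which was 70.2% unique, Trim17 and Gm44313 overlap 33.0% of the exon. The median share was 99.2% in H1, 10.5% in H2A, 67.2% in H2B, 62.9% in H3 and 74.6% in H4. In Hist1h2ao and Hist1h2ap, which are each other's closest copies, it was 7.3% and 7.8%. In 13 members it was under 50%, and their median level was 0.723 CPM per kb, against 0.403 in the other 29. Members were kept for having 10 or more counts, so symbols with fewer counts are not in this comparison. The median share of the 13 symbols at 0 counts was 23.8%. Among the 13 symbols at 0 counts, 5 had no unique stretch and were also fully covered by the exons of other annotated genes. With such an annotation a count of 0 cannot be read as lack of expression. The sources used here state neither the read length nor the treatment of multiple alignments.

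**Figure D2:**
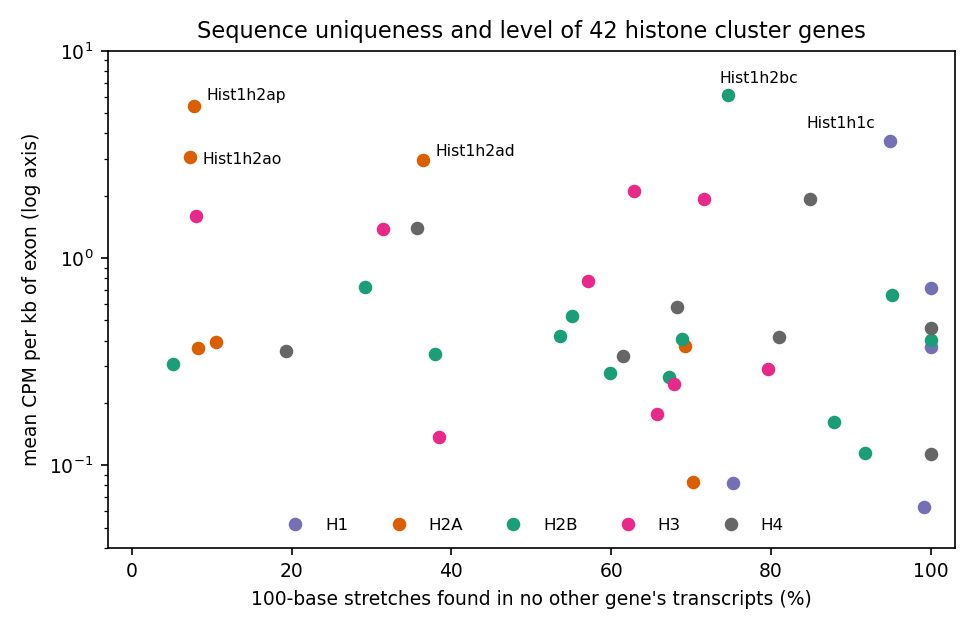
Share of 100-base stretches found in no other gene's transcripts (x, percent) against mean CPM per kb of exon on a log axis (y), 1 point per member, coloured by class. Hist1h2ap and Hist1h2ao stand at 5.40 and 3.06 CPM per kb with 7.8% and 7.3% unique, and Hist1h2bc leads at 6.09 with 74.6%.

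The pair of Hist1h2bc and Hist1h1c held 37.9% of the 2592 counts of all members. They were followed by the H2A genes Hist1h2ap, Hist1h2ad and Hist1h2ao with 201, 131 and 113 counts, by Hist1h4i with 107 and by Hist1h3c with 92. Just inside the limit of 10 counts lay Hist1h2aj, Hist1h2bb, Hist1h2bj, Hist1h2bl and Hist1h3a with 10 each. Just outside lay Hist1h2ac and Hist1h4f with 9.

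Only 13 of the 42 members passed the filter on low counts and were tested for differences. Of these, 6 passed it in both WT libraries, and 7 passed only with the help of libraries labelled knockout: Hist1h2be, Hist1h2bq, Hist1h3c, Hist1h3h, Hist1h3i, Hist1h4i and Hist2h2be. A member that is higher in the knockout libraries was thus more likely to be tested, and counts over the tested members describe those 13 and not the family. The targeted gene Bcat1 stood at 602 and 614 CPM in WT, 617 and 662 for clone 1 and 583 and 579 for clone 2, so its RNA gives no check of the knockout label.

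**Figure D3:**
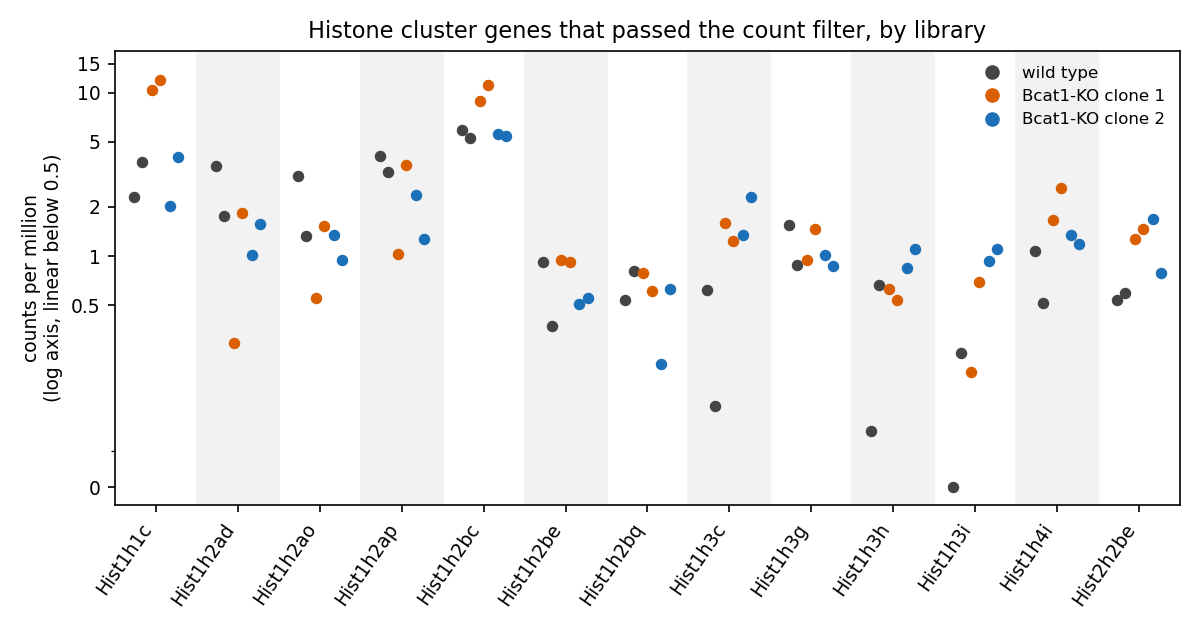
CPM in each of 6 libraries (points, coloured by group) for the 13 tested members, on a log axis that is linear below 0.5. Clone 1 stands above the other groups in Hist1h1c and Hist1h2bc, and all 4 libraries labelled knockout stand above both WT libraries in Hist1h3c, Hist1h4i and Hist2h2be.

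Between the libraries labelled knockout and WT, 0 of the 13 tested members passed the quasi-likelihood test of edgeR after Benjamini-Hochberg adjustment, where 6.36% of all 14946 tested genes did, 4.25% higher and 2.11% lower. DESeq2 also called 0. At an unadjusted p under 0.05 there were 2, Hist1h3c and Hist2h2be. The median log2 fold change of the 13 was 0.47, against 0.0045 over all tested genes, with 8 positive and 5 negative. That median can be raised by the 7 that passed the filter only with libraries labelled knockout. In 3 of the 13, Hist1h3c, Hist1h4i and Hist2h2be, all 4 libraries labelled knockout lay above both WT libraries, a pattern seen upward in 18.3% of all tested genes. In 0 of the 13 did all of them lie below WT, where 16.7% of all tested genes did. Without the filter, which lets all 42 members be tested, Hist1h1c (adjusted p = 0.0201) and Hist1h3c (adjusted p = 0.0299) passed.

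Linker histone Hist1h1c was higher in clone 1 and not in clone 2. Hist1h1c (ENSMUSG00000036181.2, chromosome 13, 23738808 to 23740367) encodes H1.2, one of the somatic H1 subtypes. Its counts were 30 and 51 in WT, 130 and 156 for clone 1 and 24 and 51 for clone 2. Both clone 1 libraries lay above all others, and clone 2 overlapped WT. Mean levels with SD over 2 libraries were 3.04 ± 1.03 CPM for WT, 11.1 ± 1.17 for clone 1 and 3.03 ± 1.42 for clone 2. Clone 1 exceeded WT by a log2 fold change of 1.87 ± 0.29 (SE), with an edgeR adjusted p of 0.000202, and for clone 2 the value was -0.00 ± 0.35, with an adjusted p of 1. The direct contrast of clone 2 with clone 1 gave -1.87 ± 0.29 and an adjusted p of 0.000379. Both calls held in every alternative run, with highest adjusted p of 0.0115 and 0.007.

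The other H1 members had at most 12 counts in any library. Hist1h1a, the gene of H1.1, had 6 and 3 counts in WT, 6 and 5 for clone 1 and 12 and 8 for clone 2. Hist1h1b, for H1.5, had 0 and 2, then 9 and 2, then 4 and 4. Hist1h1d, for H1.3, had 3 to 9 counts in every library and Hist1h1e, for H1.4, had 1 to 4. All 4 fell short of the filter. The H1 sum was 4.14 ± 0.726 CPM in WT and 12.6 ± 1.08 in clone 1, of which Hist1h1c held 3.04 and 11.1. H1f0, the replacement linker histone H1.0 encoded outside the clusters, rose in both clones, by 0.66 ± 0.08 in clone 1 (adjusted p = 2.91e-05) and 0.34 ± 0.08 in clone 2 (adjusted p = 0.00949) by edgeR. Between the clones H1f0 was also lower in clone 2.

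Hist1h2bc, an H2B gene whose annotated transcript has more than 1 exon, was likewise highest in clone 1. Its counts were 77 and 71 in WT, 112 and 145 for clone 1 and 66 and 69 for clone 2. Both clone 1 libraries lay above all others, and clone 2, at 5.57 and 5.46 CPM, overlapped WT at 5.94 and 5.24. The change was 0.84 ± 0.21 on the log2 scale for clone 1 (edgeR adjusted p = 0.00842), -0.02 ± 0.22 in clone 2 (adjusted p = 0.967), and -0.86 ± 0.21 between clone 2 and clone 1 (adjusted p = 0.0114). The clone 1 call was lost without WT replicate 2 (adjusted p = 0.0849), and the call between clones without clone 1 replicate 2 (0.0550), clone 2 replicate 1 (0.0726) or clone 2 replicate 2 (0.0766). The listed markers of fibroblasts and feeder cells were also highest in clone 1: their summed level was 23.7 and 23.9 CPM in WT, 33.5 and 32.1 for clone 1 and 21.0 and 20.7 for clone 2, with Lum, Dcn, Postn and Acta2, 4 of the 9 listed, at 0. Most of that sum was Pdgfrb, at 20.6 and 19.2 CPM in WT and 24.2 and 24.5 in clone 1, which was not called in clone 1 (adjusted p = 0.121). Thy1 rose in clone 1 (edgeR adjusted p = 0.0311), while its log2 change in clone 2 was -0.94 ± 0.35 and not called (0.0769). Col1a1 had 11 and 14 counts in WT, 20 and 19 for clone 1 and 8 and 12 for clone 2. It was called in neither clone, and Col3a1 had at most 3 counts in any library. Col1a2, a collagen gene, had 0 and 1 counts in WT, 22 and 15 for clone 1 and 11 and 18 for clone 2. It rose in each clone (adjusted p = 0.000969 and 0.00250 by edgeR) and was the only listed marker called in both. Like Hist1h3c, Col1a2 passed the count filter only with libraries labelled knockout, so each was tested only through the group where it is high. The part of these markers in the level of Hist1h1c, Hist1h2bc and Hist1h3c was not tested.

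Most other H2B members were near the limit of detection. Hist2h2be, whose 100-base stretches were all unique and whose transcript ends with a poly(A) signal, had 7 and 8 counts in WT, 16 and 19 for clone 1 and 20 and 10 for clone 2. WT lay below all other libraries, and the log2 fold change for genotype, 1.19 ± 0.50, did not pass (edgeR adjusted p = 0.189). Hist1h2be and Hist1h2bq, the remaining tested H2B members, had 6 to 12 and 4 to 11 counts in the 6 libraries, with overlapping groups and genotype changes of 0.11 ± 0.56 and -0.18 ± 0.55. Hist1h2bq, whose closest copy is Hist1h2br, was 5.2% unique. Hist1h2bb had 0 counts in both WT libraries and 6, 0, 4 and 0 in the others.

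The 3 leading H2A members had log2 changes below 0 in both clones, and none was called. Hist1h2ap had 53 and 44 counts in WT, 13 and 47 for clone 1 and 28 and 16 for clone 2. Hist1h2ad had 46 and 24, then 5 and 24, then 12 and 20, and Hist1h2ao had 40 and 18, then 7 and 20, then 16 and 12. Clone 1 replicate 1 was the lowest library for each of them, while clone 1 replicate 2 overlapped WT. For genotype the log2 changes were -0.82 ± 0.46, -1.13 ± 0.53 and -1.0 ± 0.50, with edgeR adjusted p of 0.326, 0.241 and 0.265. For clone 1 against WT, Hist1h2ad passed when no filter was applied (adjusted p = 0.0217), and without clone 1 replicate 2 all 3 passed, with adjusted p of 0.00357, 0.00118 and 0.0237. For clone 2 against WT, Hist1h2ap passed with no filter (0.0267), with only the 4 libraries compared (0.0266) and without clone 1 replicate 1 (0.0208) or clone 1 replicate 2 (0.0302). Clone 1 replicate 1 also had the highest share of reads without a feature, 5.35%, and the lowest share of ambiguous reads, 6.96%, where the other libraries had 4.14% to 4.80% and 7.62% to 9.10%. The part of this in the H2A values was not tested. Each of these genes is overlapped on the opposite strand by another annotated gene, over 24.1% to 28.8% of its exon. Reads over both could be counted as ambiguous if strand was not used. The other 4 H2A members, Hist1h2ae, Hist1h2ah, Hist1h2aj and Hist3h2a, had at most 6 counts in any library.

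**Figure D4:**
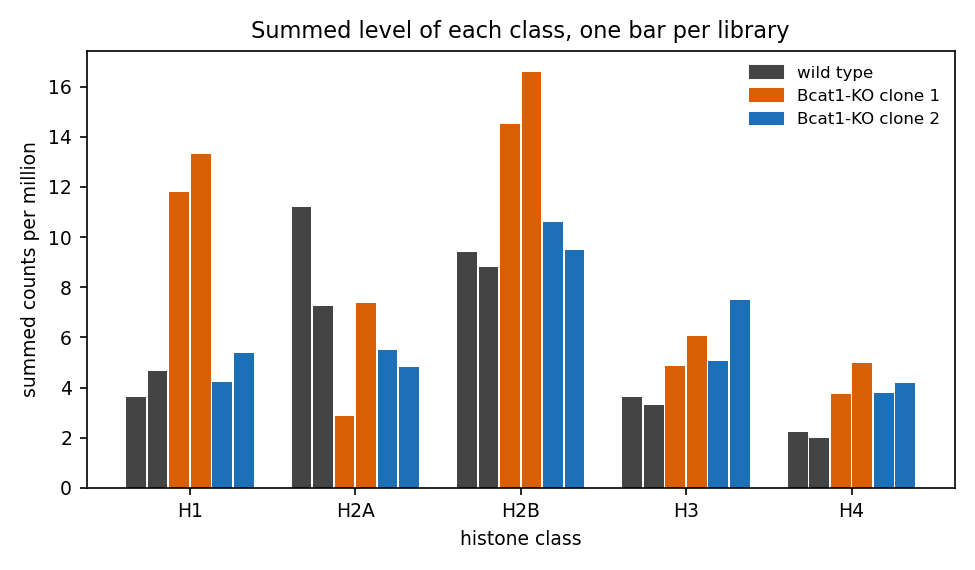
Summed CPM of the members of each class, 1 bar per library, coloured by group. H1 and H2B are highest in clone 1, and H2A is lowest in clone 1 replicate 1 at 2.85. H3 and H4 are higher in all 4 libraries labelled knockout than in both WT libraries. Single genes showed that pattern in 18.3% of all tested genes, and the WT sums rest on 47 and 45 counts for H3 and 29 and 27 for H4.

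Hist1h3c was the one member called in both clones. It is an H3 gene on chromosome 13 (23744973 to 23745602), with 8 and 3 counts in WT, 20 and 16 for clone 1 and 16 and 29 for clone 2. No library labelled knockout overlapped WT. Against WT it rose by 1.73 ± 0.60 on the log2 scale in clone 1 (edgeR adjusted p = 0.0469) and 2.11 ± 0.58 in clone 2 (adjusted p = 0.0175). Both contrasts share the WT libraries, which hold 11 counts in all. Between the clones it was 0.38 ± 0.48 and did not pass. The call rested on few counts. In clone 1 it was lost by DESeq2 (adjusted p = 0.110), with only the 4 libraries compared (0.0515) and when 1 library was left out: replicate 1 (0.0681) or 2 (0.300) of WT, replicate 1 (0.148) of clone 1, or replicate 1 (0.0625) or 2 (0.0678) of clone 2. In clone 2 it was lost without WT replicate 2 (0.177) or clone 2 replicate 2 (0.202).

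Among the other H3 members, Hist1h3i had 0 and 5 counts in WT, 4 and 9 for clone 1 and 11 and 14 for clone 2. Its log2 change in clone 2 was 2.38 ± 0.84 with an edgeR adjusted p of 0.0612, and it passed with no filter (0.0390), with the replicate block (0.0298), with only the 4 libraries compared (0.0161) and without clone 1 replicate 1 (0.0340) or clone 1 replicate 2 (0.0366). It also passed without WT replicate 2 (0.0440), where the fitted change of 6.70 is against a single WT library at 0 and is no bound. Hist1h3h had 2 and 9, then 8 and 7, then 10 and 14, with overlap between WT and clone 1. Hist1h3g, at 2.11 CPM per kb the most abundant H3 member per length, had 11 to 20 counts in all libraries and a genotype change of -0.17 ± 0.45. The H3 members were 8.0% to 79.6% unique, so reads can be lost or split between copies. Summed over the 9 members, the H3 class stood at 3.63 and 3.32 CPM in WT, 4.84 and 6.06 for clone 1 and 5.07 and 7.51 for clone 2.

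Hist1h4i, the leading H4 gene (chromosome 13, 22040636 to 22041362), had 14 and 7 counts in WT, 21 and 34 for clone 1 and 16 and 15 for clone 2. Both clones lay above WT. It was called in clone 1, by 1.42 ± 0.49 (edgeR adjusted p = 0.0475), and not in clone 2, where the change was 0.67 ± 0.53 (adjusted p = 0.429). The difference between the clones, -0.75 ± 0.46, did not pass (adjusted p = 0.317). The clone 1 call was lost by DESeq2 (0.134), with only the 4 libraries compared (0.0543) and when 1 library was left out: replicate 1 (0.0674) or 2 (0.293) of WT, replicate 2 (0.258) of clone 1, or replicate 1 (0.0655) or 2 (0.0574) of clone 2. Hist1h4k, at 1.39 CPM per kb the next H4 member by level, had 3 to 8 counts per library, and Hist1h4j had 0 and 1 in WT, 1 and 6 for clone 1 and 8 and 8 for clone 2. The H4 sum was 2.24 and 1.99 CPM in WT and 3.73 to 4.99 in the libraries labelled knockout.

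**Figure D5:**
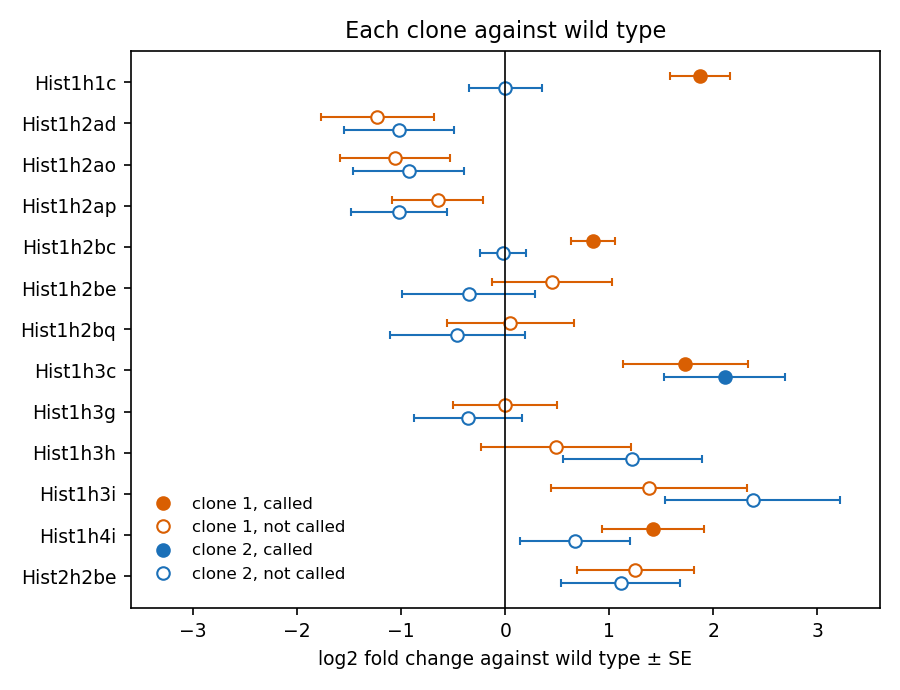
Log2 fold change against WT with its SE for the 13 tested members in clone 1 (orange) and clone 2 (blue), which share the WT libraries; filled points passed edgeR's test at an adjusted p of 0.05. Hist1h1c, Hist1h2bc, Hist1h3c and Hist1h4i are filled in clone 1, and Hist1h3c alone in clone 2.

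In counts, 4 of the 13 tested members were higher in clone 1 than in WT and 0 lower, where 12.4% of all tested genes were called higher and 9.53% lower. Clone 2 had 1 higher and 0 lower, against 10.1% and 7.81% of all tested genes. Between the clones 0 were higher and 2 lower in clone 2, against 6.62% and 7.71%. Leaving out single libraries moved the clone 1 count to 1 when WT replicate 2 was absent and to 2 when WT replicate 1 or either clone 2 library was. It became 3 in the absence of clone 1 replicate 1, and 6, of which 3 lower, in the absence of clone 1 replicate 2. It moved the clone 2 count to 3 without clone 1 replicate 1 or 2 and to 0 without clone 2 replicate 2. The count between the clones became 1 without clone 1 replicate 2 or either clone 2 library. The median log2 fold change was 0.49 in clone 1 (-0.001 over all tested genes), -0.02 in clone 2 (-0.0017) and -0.36 between the clones. Of the 13, 7 passed the filter only with libraries labelled knockout, among them Hist1h3c and Hist1h4i. The counts and medians against WT are therefore not read as an excess over all genes. Leaving out the Hist1h2bc and Hist1h1c pair, the summed level of the other 40 members was 21.8 and 17.0 CPM in WT, 18.6 and 25.3 for clone 1 and 21.6 and 21.9 for clone 2, so the groups overlapped. Summed over all 42, the level was 30.1 and 26.0 CPM in WT, 37.7 and 48.4 for clone 1 and 29.2 and 31.4 for clone 2. Clone 2 thus overlapped WT. Hist1h2ap, Hist1h2ad and Hist1h2ao, whose log2 changes were below 0 in both clones, were left out instead. The other 39 stood at 19.4 and 19.6 CPM in WT, 35.8 and 41.4 for clone 1 and 24.5 and 27.6 for clone 2. The groups then did not overlap, but that choice favours a higher remainder in the clones and is no separate result. Both sets left out were picked from these same data.

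Lists of genes that make and process histone messenger RNA were also read. Of 11 listed for transcription and the histone locus body, 1 rose for genotype, the cell cycle factor E2f1, by 0.39 ± 0.09 (edgeR adjusted p = 0.0260), and 0 fell, where 4.25% of all tested genes rose and 2.11% fell. Npat, the coactivator that cyclin E and Cdk2 act on at histone genes, was at 65.6 and 66.0 CPM in WT and 64.5 to 76.6 in the libraries labelled knockout, and was not called. Ccne1, cyclin E1, fell in each clone, by 0.38 ± 0.09 in clone 1 (adjusted p = 0.00432) and by 0.27 ± 0.09 in clone 2 (adjusted p = 0.0389), and Coil, a protein of Cajal bodies, rose in each. For genotype their adjusted p was 0.0598 and 0.0535. Of 17 tested genes for cutting the 3′ end, 0 were called for genotype, where 6.36% of all tested genes were. In clone 1 the Sm protein gene Snrpb fell by 0.42 ± 0.10, and in clone 2 Snrpe fell by 0.37 ± 0.09 and the scaffold gene Sympk rose. They were the only calls of this list against WT. Of all tested genes, 9.53% fell in clone 1, and 7.81% fell and 10.1% rose in clone 2. None of the 9 genes for translation and decay of histone RNA was called in any of the 4 comparisons. Of all tested genes, 6.36% were called for genotype, 21.9% in clone 1, 17.9% in clone 2 and 14.3% between the clones.

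For S phase genes the calls against WT were in 1 direction. Of 20 listed, 1 fell for genotype, Rrm2, a subunit of ribonucleotide reductase, by 0.44 ± 0.07 (edgeR adjusted p = 0.00951), and 0 rose. Of all tested genes 2.11% fell and 4.25% rose for genotype. In clone 1, 4 fell and 0 rose, and in clone 2, 3 fell and 0 rose, where 9.53% and 7.81% of all tested genes fell. Pcna, the replication clamp, fell in each, by 0.24 ± 0.08 and 0.25 ± 0.08. Their summed level was 6968 and 6894 CPM in WT, 6257 and 6344 for clone 1 and 6540 and 6501 for clone 2. Of 18 genes of G2 and M phase, 0 were called for genotype, where 6.36% of all tested genes were. Of these 18, 9 fell in clone 1 and 3 in clone 2, beside 9.53% and 7.81% of all tested genes. Among 17 histone chaperones 0 were called for genotype, against the same 6.36%. In clone 1, 4 chaperones fell, where 9.53% of all tested genes did. In clone 2, 1 rose, where 10.1% of all tested genes did. It was Ubn1, a subunit of the HIRA complex that deposits H3.3, which rose by 0.42 ± 0.10.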

How the data were processed

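Per the submitters' processing notes, HISAT2 2.1.0, HTSeq 0.9.1, DESeq2 1.18.1 and mm10 were used, without their roles. The sources used here give neither annotation nor strand setting. The deposited values are whole-number counts of reads per gene. The 5 HTSeq summary entries stayed out of library sizes, and reads with several alignments were 15.6% to 16.6% of all reads. The 6 further samples, wild type cells kept with 2i and LIF or grown 7 days without them, were not analysed here.

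All genes were fitted together with edgeR 4.0.16 in R 4.3.3: TMM scaling, filterByExpr on groups, quasi-likelihood F test, two-sided, adjusted over 14946 genes at 0.05. The genotype fit joins both clones, and the clone contrasts come from a fit of 3 groups. SEs are the fold change divided by the square root of F. In simulated counts with 200 genes changed by a log2 of 1, the genotype fit recovered 77.0% over 14330 genes with 6.67% false calls, clone 1 66.0% (7.04%) over 14333, clone 2 70.5% (4.73%) over 14318 and the contrast between clones 71.0% (9.55%) over 14346. The simulation held no difference between the clones beside the changed genes, while 2141 genes differed between them here. Clone difference enters the spread of the genotype fit, so its simulated share does not carry over to these data. The changed genes were drawn from all tested genes, so these shares do not describe members with few counts. Replicate libraries of every group were further apart than counting noise (chi-square per gene 3.27 to 8.79).

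Members and gene lists were chosen with earlier results of these data known. Values in every library are given for the most abundant, most changed and called members of each class, and up to 4 genes per list. Exon lengths and transcripts come from GENCODE M21 and promoters from RefSeq. Alternatives were DESeq2 1.42.0, other size factors and filters, a replicate block, other sets of libraries and each library left out. Figures used matplotlib 3.10.9.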

Additional observations from a re-analysis of the deposited data

Results flagged for a closer look

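Hist1h1c and Hist1h2bc differed between the clones of the same knockout, by the contrast of clone 2 with clone 1 in edgeR. The log2 difference was -1.87 for Hist1h1c and -0.86 for Hist1h2bc, with clone 2 lower in 2 of 2 libraries for each. Among the 4 libraries labelled knockout, 1 stood apart from the rest in 2 of the 42 members by Dixon's 95% limit, and chance alone gives about 1 in 20. Hist1h3e, an H3 gene that did not pass the filter, was at 1.5 CPM (19 counts) in clone 2 replicate 2 and at 0.396 to 0.46 in the others. Hist2h3c2, also an untested H3 gene, was at 0.537 CPM (7 counts) in clone 1 replicate 2 and at 0 to 0.0793 in the others.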

How the results depend on the processing

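Among the recomputed single-member results, 617 kept their direction and side of the threshold or were never called, 20 lost a call, 18 gained one and 0 turned direction with a call. For genotype, the count of called members, 0, became 2 without the filter and 2 for the mean of both clone contrasts, and stayed 0 with each library left out. For clone 1, 4 became 2 by DESeq2 and 2 with only the 4 libraries compared, and was 1 to 6 with each library left out. For clone 2, 1 became 3 without the filter, 2 with the replicate block and 3 with only the 4 libraries compared, and was 0 to 3 with each library left out. Between the clones, 2 became 1 to 2 with each library left out. A filter tests a different number of members, 9 at a mean CPM of 1 and 42 with none, and the cause of other changes was not tested. Same-numbered libraries deviated together weakly (correlation of 0.202, 0.0874 and 0.325 for the 3 pairs of groups), which does not show that the numbers pair the samples. With the block, called genes among all tested went from 951 to 646 for genotype, from 3280 to 4410 in clone 1, from 2674 to 3685 in clone 2 and from 2141 to 3007 between the clones. With library totals alone the median change of all genes in clone 1 was 0.0905. Where a lone library is left in a group, it is assumed to vary like the others. Low counts limit most members: 29 of 42 did not pass the filter.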

Other observations

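Replacement variants moved in both directions. Of 11 tested, H1f0 and H2afy2, the gene of macroH2A.2, rose for genotype and 0 fell, where 4.25% and 2.11% of all tested genes did. H2afy2 rose by 0.82 ± 0.12 (edgeR adjusted p = 0.00412), from 27.5 and 32.4 CPM in WT to 47.9 to 57.1 in the libraries labelled knockout. Against WT, 2 of the 11 rose and 3 fell in clone 1, where 12.4% and 9.53% of all tested genes did. The same numbers rose and fell in clone 2, where 10.1% and 7.81% of all tested genes did. In each clone H2afz and H3f3a fell. H2afz fell by 0.29 ± 0.07 in clone 1 and by 0.24 ± 0.07 in clone 2. H3f3a fell by 0.50 ± 0.13 and by 0.47 ± 0.13. Cenpa, the centromeric H3 variant, fell in clone 1 by 0.59 ± 0.08, and H2afx fell in clone 2 by 0.47 ± 0.12. Between the clones H1f0, H1fx and H2afx were lower and Cenpa higher in clone 2, where 7.71% and 6.62% of all tested genes were. For H1fx the clones overlapped, at 9.04 and 22.3 CPM in clone 1 and 7.77 and 9.09 in clone 2. Its high value was in clone 1 replicate 2 alone.

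Counts of back-to-back histone genes were unequal in some pairs and near equal in others. Of 15 head-to-head pairs whose starts lay within 1000 bases, 14 joined an H2A with an H2B gene. Hist1h2bc had 540 counts in all libraries and Hist1h2ac, whose start is 251 bases away, had 9. Hist1h2ap had 201 and Hist1h2br 8, Hist1h2ad 131 and Hist1h2bf 15, and Hist2h2be 80 and Hist2h2ac 0. Hist1h2ae had 20 and Hist1h2bg 25, and Hist1h2bh 15 and Hist1h3f 17. No test was made of these pairs, and shared sequence differs between their genes.

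The testis histones Hist1h2aa and Hist1h2ba, back to back on chromosome 13, were at 0 in all libraries, and Hist1h1t had 3 counts in all.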
